A study of Scyliorhinus canicula with 6 samples.

Results

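The contig groups with the most transcript variants were examined in RNA-seq of the heart ventricle of the small-spotted catshark (Scyliorhinus canicula), a shark that lays eggs. A contig is one assembled transcript sequence, and a contig group is the set of contigs that share a name up to the final contig number. The groups were chosen by name and length alone, with no measured value. The 150 groups with the longest contigs were left out, and the 150 remaining groups with the most contigs were taken, with ties settled by name. They form 150 of 269971 contig groups and hold 3106 of 347710 contigs (0.893%).

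The juveniles came from embryos kept at 20 °C or 15 °C until hatching. After hatching, both lots lived at a common 15 °C for about 5 months until sampling. There were 3 libraries of each temperature, numbered replicate 1 to 3 in the sample titles. No label says that the replicates of a temperature were separate animals or clutches, and a p-value then reflects the spread among these libraries alone, which may be technical. Total estimated counts were 5310811, 4137455 and 5070116 in the 20 °C libraries, against 2977166, 12954558 and 2397973 in the 15 °C libraries, so that 15 °C replicate 2 was by far the deepest. The ventricle label could not be checked against marker genes, because the files do not pair contigs with gene names.

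The transcripts of one gene can differ by alternative splicing, by alternative start or end sites and by the allele they were copied from. In the vertebrate heart, several proteins of the contractile apparatus, among them troponin T, tropomyosin and titin, are known to be made in alternatively spliced forms. A de novo assembler has no genome to consult, and it places under one group name all paths through a tangle of overlapping sequence. Such a group can hold splice forms, alleles, near-identical gene copies, transposon sequence and partly processed RNA, and which of these a contig represents is not told by its name. Reads that match several contigs of a group are divided among them by an estimate, so the sum over a group does not carry the uncertainty of that division while the value of each contig does. Reads shared between groups, if any, would leave uncertainty in the sums as well, which was not tested.

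A RefSeq gene table of this species with 29227 entries held 0 of the contig names. Such names are made by an assembler, so this 0 says nothing about the groups. No group could be given a gene name or function, since the files do not pair contigs with gene names. Groups are therefore called by their names in the files, without the prefix TRINITY_ that all of them share, and a contig by its number within the group (i13 is contig 13). No contig sequence is printed, since the assembly was not used here.

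Each of the 150 groups held 17 to 41 contigs, with a median of 20. The largest were DN138857_c3_g1 with 41 contigs and DN137247_c0_g1 with 40, and no other group reached 30. At the edge of the choice, 20 groups with 17 contigs were taken and 21 groups with the same number were not, so membership there rests on the name. The longest contig of a group measured 342 to 7541 bases, with a median of 1546. It was under 1000 bases in 62 groups, 1000 to 3000 in 46 and at least 3000 in 42. The longest contig was typically 3.64 times the length of the shortest in the same group (median). The groups left out for length have a longest contig of at least 9019 bases, and they held a median of 4 contigs and at most 17.

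All 150 groups had different DN numbers, the coarsest level in the contig names. A DN number with one of them held a median of 5.5 contig groups, against 6 for the next 150 groups by number of contigs. The median was 4 for all other groups of at least 2 contigs and 1 over all groups. Contig numbers ran without a gap in every one of the 150 groups.

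Few of the contigs carried reads in every library. Of the 3106 contigs, 842 (27.1%) had a count of 0 in all 6 libraries, 1945 (62.6%) reached 1 count in at least 1 library, and 83 (2.67%) reached it in all 6. Among all other groups of at least 2 contigs, 14.9% of contigs were at 0 throughout and 7.42% reached 1 count in every library. The next 150 groups by number of contigs lay close to the first 150, with 24.4% and 2.84%. Estimated counts were rarely whole numbers: 84.1% of the values from 1 to 10000 were more than 0.001 away from one, the mark of reads divided among contigs, against 81.7% in the other groups of at least 2 contigs.

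The number of contigs detected was highest in the deepest library and lowest in the smallest, but did not follow depth throughout. The third 20 °C library was deeper than the second and had fewer detected contigs. At least 1 count was found for 708, 704 and 649 contigs in the 20 °C libraries and for 558, 1165 and 502 in the 15 °C libraries. When every library was thinned at random to the smallest total, the numbers were 574, 627 and 546 at 20 °C and 545, 748 and 540 at 15 °C. Estimated counts were rounded before thinning, so values rounded up to 1 were detected as well. The smallest library, 15 °C replicate 3, thus rose from 502 to 540. The thinned numbers can be compared with each other but not with the unthinned ones. Among the thinned numbers the deepest library still had the most detected contigs, and the other libraries lay between 540 and 627.

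The groups themselves were found more widely than their contigs. In 128 groups the summed count reached 1 in every library, 22 were at 0 in some library and 0 were at 0 in all. The mean count per library was under 20 in 71 groups, 20 to 100 in 49, 100 to 1000 in 24 and at least 1000 in 6. Together the 150 groups took 0.878%, 1.23% and 0.575% of TPM (abundance scaled for transcript length and library depth) in the 20 °C libraries, against 0.483%, 2.34% and 1.09% in the 15 °C libraries. The 20 °C mean was 0.896% ± 0.330 and the 15 °C mean 1.31% ± 0.949 (SD, n = 3 libraries each), so the ranges overlapped and 15 °C replicate 2 was highest.

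DN139233_c3_g1 and DN140256_c1_g2 were the most abundant of the 150 groups, and that spread came mostly from the first. DN139233_c3_g1 averaged 4302 TPM at 20 °C against 8245 TPM at 15 °C. DN140256_c1_g2 averaged 2627 and 2638 TPM. These 2 groups held 74.0%, 76.5% and 61.8% of the counts of all 150 groups in the 20 °C libraries and 58.2%, 85.4% and 74.0% in the 15 °C libraries. The other 148 groups together took 0.183%, 0.242% and 0.184% of TPM at 20 °C and 0.185%, 0.244% and 0.230% at 15 °C. Without the most abundant pair, the 20 °C mean differed from the 15 °C mean by -0.0162 percentage points, against -0.412 with them. Without 15 °C replicate 2, the difference over all 150 groups was 0.107 percentage points, with 20 °C above 15 °C.

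DN139233_c3_g1, with 19 contigs of 803 to 2938 bases, had 5003, 6682 and 1221 TPM in the 20 °C libraries and 1545, 17348 and 5842 TPM in the 15 °C libraries. Its lowest value was at 20 °C and its highest at 15 °C, and the temperatures overlapped. DN140256_c1_g2, also with 19 contigs, varied less, with 1943, 3241 and 2697 TPM at 20 °C and 1442, 3664 and 2809 TPM at 15 °C. It averaged 2627 ± 652 TPM at 20 °C, against 2638 ± 1121 TPM at 15 °C (SD, n = 3 libraries each). The other 6 of the 8 most abundant groups were an order of magnitude lower. The third in order, DN139084_c0_g1, had 184, 312 and 278 TPM at 20 °C against 180, 189 and 284.5 TPM at 15 °C. These ranges overlapped almost fully. DN136214_c5_g1 had 68.1, 107.8 and 86.7 TPM at 20 °C and 116.0, 113.7 and 108.1 TPM at 15 °C. Its temperatures did not overlap in TPM, but the second 20 °C library and the third 15 °C library lay side by side. In CPM (counts scaled for depth alone) the temperatures did overlap, with 252 in that 20 °C library and 231 in that 15 °C library. DN140519_c2_g2 was low in 20 °C replicate 3, with 80.0, 122 and 22.4 TPM at 20 °C and 72.4, 109 and 76.0 TPM at 15 °C. The other 5 libraries of this group lay between 72.4 and 122 TPM. DN139756_c3_g1 had 72.9, 102 and 96.0 TPM at 20 °C and 46.8, 180 and 65.3 TPM at 15 °C, so both its lowest and its highest library were incubated at 15 °C. DN138967_c4_g5 had 56.4, 85.9 and 72.7 TPM at 20 °C and 54.6, 61.8 and 81.8 TPM at 15 °C. Its values at the 2 temperatures were interleaved.

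**Figure D1:**
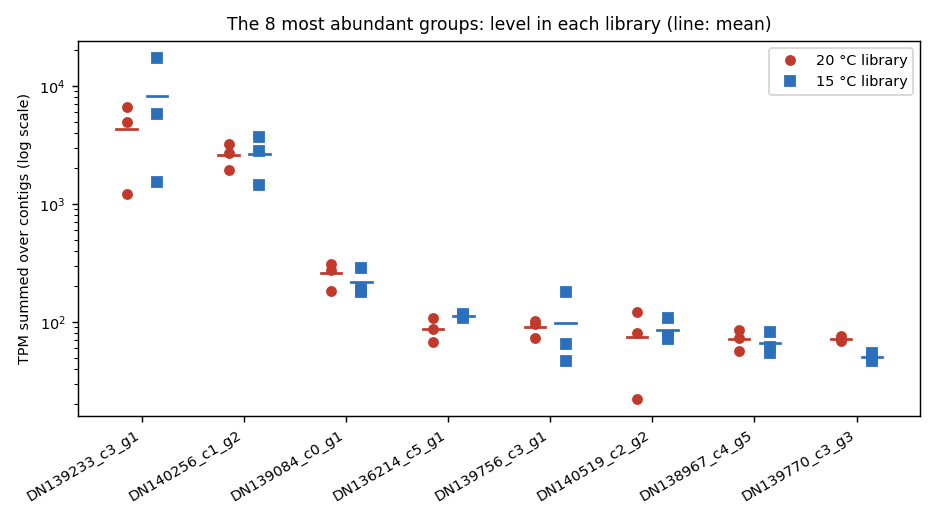
Summed TPM of the 8 most abundant of the 150 contig groups in each library, on a log axis, with the 20 °C libraries (red circles) left of the 15 °C libraries (blue squares) and a line at each mean. The most abundant group spans 1221 to 6682 TPM at 20 °C and 1545 to 17348 TPM at 15 °C, while DN139770_c3_g3 lies at 68.9 to 76.0 TPM at 20 °C and at 47.0 to 54.7 TPM at 15 °C.

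The contig that led a group was rarely the same in every library. The leading contig was taken as the one with the highest estimated count in a library, and it was followed in the 41 groups with at least 20 counts in each of the 6 libraries. The other 109 groups were too shallow in at least 1 library. One contig led in all 6 libraries in 6 of the 41 groups. In the other 35 groups, 2 contigs took the lead in 10, 3 in 11, 4 in 8 and 5 in 6, and in 0 groups did every library have a leader of its own. Of the 22 groups with at least 50 counts in every library, 16 also changed leader.

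A lost lead often meant a lost signal. In 32 of the 41 groups, a contig that led in one library had under 1 count in another. In 19 groups, a contig that held at least 50% of its group's counts in one library had under 1 count in another. No such counts over other groups stand beside these numbers, so they are not read as a trait of the 41 groups. Under 1 count does not show absence where a group held few counts in that library.

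Leaders were also set side by side by temperature. The same contig led all 3 libraries at 20 °C in 6 groups and all 3 at 15 °C in 12 groups. In 0 of the 41 groups did one contig lead all 20 °C libraries and another all 15 °C libraries. In 3 groups no leader at 20 °C was also a leader at 15 °C. In DN136306_c1_g1 the leaders were i21, i6 and i22 at 20 °C and i20, i20 and i12 at 15 °C. In DN131788_c3_g1 they were i18, i17 and i16 at 20 °C and i8, i2 and i2 at 15 °C. In DN136797_c0_g1 they were i9, i1 and i4 at 20 °C and i7, i8 and i8 at 15 °C. In all 3 groups the 20 °C libraries differed among themselves in leader as well. Leaders by temperature were not counted over other contig groups, so these counts are not read as a trait of the 41 groups.

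The leader held a moderate part of its group. Its share of the group's counts ranged from 11.6% to 100% over the 41 groups and 6 libraries. The median share over the groups was 45.1%, 43.2% and 48.5% in the 20 °C libraries and 45.9%, 38.4% and 48.2% in the 15 °C libraries. These medians averaged 45.6% ± 2.67 at 20 °C, against 44.2% ± 5.10 at 15 °C (SD, n = 3 libraries each), a difference of 1.43 percentage points that is smaller than either SD. It was 3.78 percentage points with a minimum of 50 counts (22 groups) and 5.61 after thinning to equal depth (33 groups). Without 15 °C replicate 2, the lowest library, it was -1.43, and without 20 °C replicate 3 it was -0.0037. The leader held at least 50% in every library in 7 groups, under 50% in every library in 10, and under 25% in every library in 2.

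The counts of a group were spread over few of its contigs. The effective number of contigs is the number of equally filled contigs that would give the same spread of counts. Its median over libraries ranged from 1.41 to 9.34 in the 41 groups, with a median of 3.10 over the groups. Taken as a percentage of the contigs each group held, the median over the groups was 14.5%. The leader was the longest contig in 11 of 246 values, and its length was typically 84.7% of the longest (median). With a median of 21 contigs in these groups, a contig taken at random would also seldom be the longest. When TPM was used in place of counts, another contig led in 97 of the 246 values, spread over 26 groups. The TPM leader was the shorter contig in all 97. TPM is scaled for effective length, so a contig with fewer counts can lead by TPM only if it is shorter. That direction was thus fixed by the measure. By TPM, 6 groups had one leader throughout, of which 5 were also among the 6 by counts: DN139756_c3_g1 had more than 1 leader by TPM, and DN138324_c0_g1 had 1 by TPM but not by counts.

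The same measures were taken in groups with fewer contigs. One leader in all 6 libraries was found in 14.6% of the 41 groups, in 20.0% of the 25 groups that reached the same depth among the next 150, and in 48.1% of 3082 such groups among all others with at least 2 contigs. The median leading share was 44.4%, 56.9% and 85.1% in these 3 sets. The sets differ in number of contigs by construction, with medians of 21, 16 and 3, so these values describe the sets and were not tested.

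**Figure D2:**
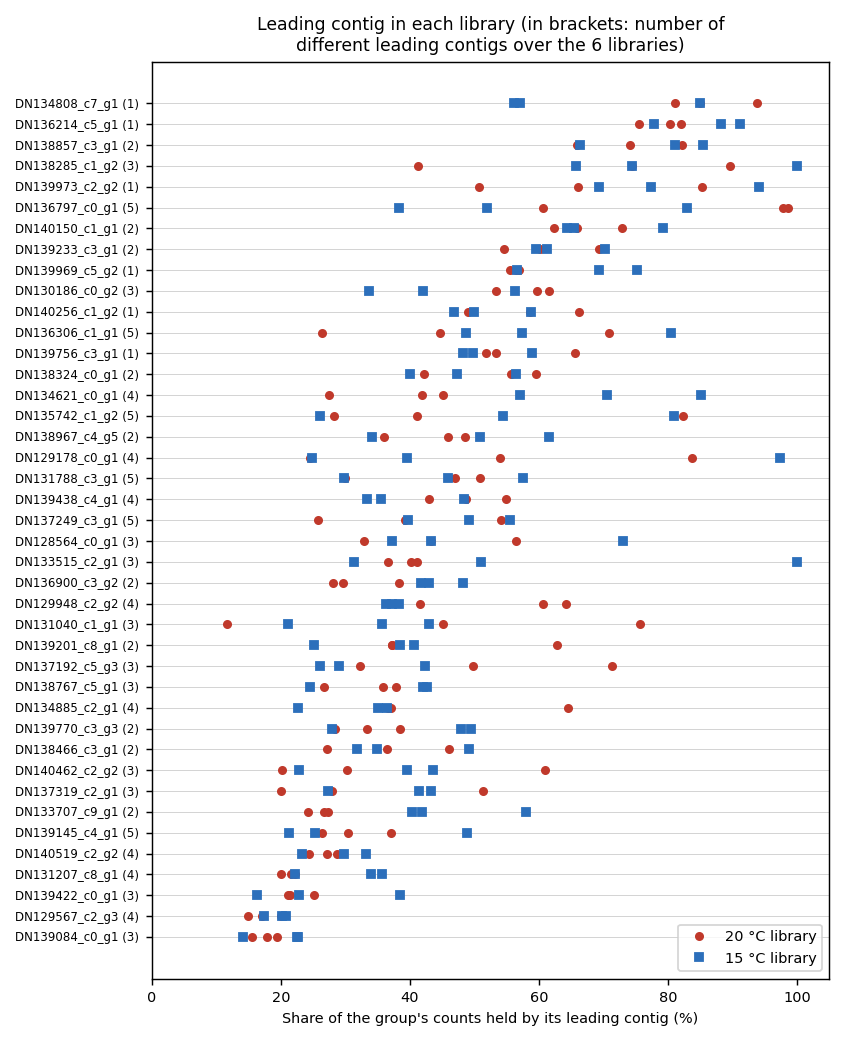
Share of the group's estimated counts held by the leading contig, in percent, on the horizontal axis, with a row for each of the 41 groups that had at least 20 counts in every library. Red circles are the 20 °C libraries and blue squares the 15 °C libraries, rows are ordered by their median, and the number in brackets is how many different contigs led over the 6 libraries. The points spread from 11.6% to 100%, and 35 of the 41 rows had more than 1 leading contig.

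In DN138857_c3_g1, the group with the most contigs, 2 long contigs replaced each other as leaders by counts. Contig i41, of 5574 bases, held 82.1%, 66.0% and 0% of the group's counts in the 20 °C libraries and 0% in each 15 °C library. Contig i19, of 5481 bases, held 0%, 0% and 74.2% at 20 °C and 81.1%, 66.4% and 85.4% at 15 °C. By counts, the first and second 20 °C libraries thus used i41, and the third 20 °C library matched the 15 °C libraries. By TPM the group had 5 leaders. In 20 °C replicate 1, i6 of 706 bases had 3.42 TPM against 2.73 for i41. In 20 °C replicate 2, i37 of 616 bases had 2.85 TPM against 1.55 for i41. The group as a whole had 10.8, 10.9 and 6.74 TPM at 20 °C against 5.38, 11.2 and 8.95 TPM at 15 °C, and its fitted log2 fold change was -0.16. Shares too small to show at the digits printed are written as 0%. A share of 0 does not show absence: with 52.7 counts in the group in the third 20 °C library, a count of 0 allows up to 5.66% of them, and with 25.7 counts in 15 °C replicate 1, up to 11.5%. These limits, and the intervals given with shares below, cover counting error only and not the division of shared reads among contigs.

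Of the other groups chosen for their number of contigs, DN137247_c0_g1 had 36.7, 31.1 and 29.9 counts at 20 °C and 24.7, 101.7 and 17.7 counts at 15 °C, so it fell below the depth limit in 1 library. Its leaders were i16, i19 and i12 at 20 °C and i16, i19 and i13 at 15 °C. DN130063_c1_g1 had 38.7, 31.9 and 59.7 counts at 20 °C and 7.08, 79.7 and 21.4 counts at 15 °C. DN130223_c2_g2, with 28 contigs, held 7.77, 0 and 4.50 counts at 20 °C and 5.00, 21.0 and 2.00 counts at 15 °C, too few to divide among contigs.

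The contig make-up of 2 libraries was compared by the distance between their shares, the percentage of a group's counts that would have to move to another contig to make the libraries equal. Over the 41 groups the mean distance between libraries ranged from 12.6% to 87.3%, with a median of 53.6%. The 6 groups with the largest distances were DN135742_c1_g2, DN131788_c3_g1, DN136797_c0_g1, DN129178_c0_g1, DN138285_c1_g2 and DN133515_c2_g1. In all 6 the leading contig differed among the libraries of each temperature.

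DN135742_c1_g2 holds the longest contig among the 150 groups, and its mean distance of 87.3% was the largest. Contig i19 held 41.1% of its counts in 20 °C replicate 1 and under 0.1% in every other library. Contig i4 held 82.4% in 20 °C replicate 3 and contig i5 held 80.9% in 15 °C replicate 3, with under 1% in the rest. Contig i12 held 54.5% in 15 °C replicate 1, 14.7% in 15 °C replicate 2 and under 0.1% elsewhere.

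In DN131788_c3_g1, contig i2 of 6857 bases was at 0% in each 20 °C library and held 0%, 29.8% and 57.5% at 15 °C, so one 15 °C library lacked it as well. Contig i18, of 6728 bases, held 50.9%, 0.67% and 21.2% at 20 °C and 0% in each 15 °C library. The group's summed level was 2.96, 3.73 and 3.44 TPM at 20 °C and 4.35, 3.34 and 5.41 TPM at 15 °C.

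DN136797_c0_g1 had 18 contigs and the plainest split. Contig i9 held 98.6% of the counts in 20 °C replicate 1 (Wilson 95% interval 91.0% to 99.7%), where the group had 59.1 counts. Contig i1 held 97.8% in 20 °C replicate 2 (interval 90.5% to 99.2%), where the group had 72.7 counts. In 20 °C replicate 3 the counts were divided between i4 at 60.6% and i1 at 39.4%. Contig i8 held 52.0% and 82.9% in 15 °C replicates 2 and 3, and i7 led 15 °C replicate 1 with 38.3%. The intervals of the first pair of libraries do not overlap for either contig. The group was chosen for its large distance between libraries, so this is not read as support for a switch. The group total was 2.11, 3.24 and 2.80 TPM at 20 °C and 3.67, 3.31 and 3.94 TPM at 15 °C, with every 20 °C library below every 15 °C library in TPM. In CPM the temperatures overlapped, with 17.6 in 20 °C replicate 2 and 17.0 in 15 °C replicate 2.

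In DN129178_c0_g1, with 29 contigs, contig i11 held 53.9%, 0% and 0.1% at 20 °C and 97.3%, 7.1% and 0% at 15 °C. Contig i1 held 0%, 83.6% and 18.2% at 20 °C and 0%, 1.3% and 0% at 15 °C. In DN138285_c1_g2, contig i7 held 41.3%, 6.9% and 0% at 20 °C and 0%, 65.7% and 100% at 15 °C. Its contig i9 held 1.5%, 0% and 89.6% at 20 °C and 74.4%, 0% and 0% at 15 °C, and in 20 °C replicate 2 contig i11 led with 74.4%. In both groups each contig was high in some libraries of one temperature and at or near 0 in others of the same temperature.

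At the other end, 4 groups had the most alike libraries: DN136214_c5_g1, DN138967_c4_g5, DN138324_c0_g1 and DN134808_c7_g1. Contig i15 of DN136214_c5_g1 held 80.4%, 82.0% and 75.4% at 20 °C and 91.2%, 77.8% and 88.2% at 15 °C. DN138967_c4_g5 was shared between i8, with 45.9%, 35.8% and 25.5% at 20 °C and 61.6%, 34.1% and 50.9% at 15 °C, and i12, with 33.5%, 36.0% and 48.5% at 20 °C and 25.7%, 30.6% and 27.5% at 15 °C. In DN138324_c0_g1 contig i19 held 55.7%, 33.8% and 59.5% at 20 °C and 56.5%, 47.3% and 40.0% at 15 °C. Its contig i14 led by counts in 20 °C replicate 2, with 42.1%, and by TPM in every library. Contig i1 of DN134808_c7_g1 led everywhere, with 85.0%, 81.1% and 93.7% at 20 °C and 56.1%, 57.0% and 85.0% at 15 °C. Even in these groups the shares moved between libraries of one temperature. In DN134808_c7_g1 the third 15 °C library lay within the 20 °C range and the other 15 °C libraries below it.

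DN139084_c0_g1 divided its reads most evenly among the abundant groups. Its leading contig held 14.1% to 22.6% in the 6 libraries, and 11 of its 18 contigs had at least 1 count in all of them.

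High abundance did not fix the division. In DN139233_c3_g1, contig i1 of 817 bases held 0.46%, 0.03% and 69.3% of the counts at 20 °C and 70.2%, 0.005% and 0% at 15 °C. Contig i17, of 953 bases, did the reverse, with 54.6%, 60.1% and 3.16% at 20 °C and 0.09%, 61.2% and 59.6% at 15 °C. One library of each temperature, 20 °C replicate 3 and 15 °C replicate 1, thus carried i1, and the other libraries carried i17 together with i19. By level, i1 had 28.5, 2.43 and 936 TPM at 20 °C and 1216, 0.99 and 0 TPM at 15 °C. The group held 3874 counts or more in every library, so the intervals of these shares are narrow. The 2 libraries with i1 were also the 2 with the lowest level of the whole group.

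DN140256_c1_g2 kept contig i13 of 917 bases in the lead, with 58.6%, 49.0% and 66.2% at 20 °C and 49.9%, 46.8% and 58.7% at 15 °C. Its longest contig, i17 of 2823 bases, split the libraries in another way, with 0.11%, 0.05% and 21.0% at 20 °C and 0.08%, 0.02% and 30.4% at 15 °C. Here the libraries with i17 were 20 °C replicate 3 and 15 °C replicate 3. The contigs i8 and i1, of 2807 and 2796 bases, held 20.5% and 14.4% in 20 °C replicate 1 and 0% and 0.07% in 20 °C replicate 3. The pairs of libraries that stood together thus differed between the most abundant groups.

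**Figure D3:**
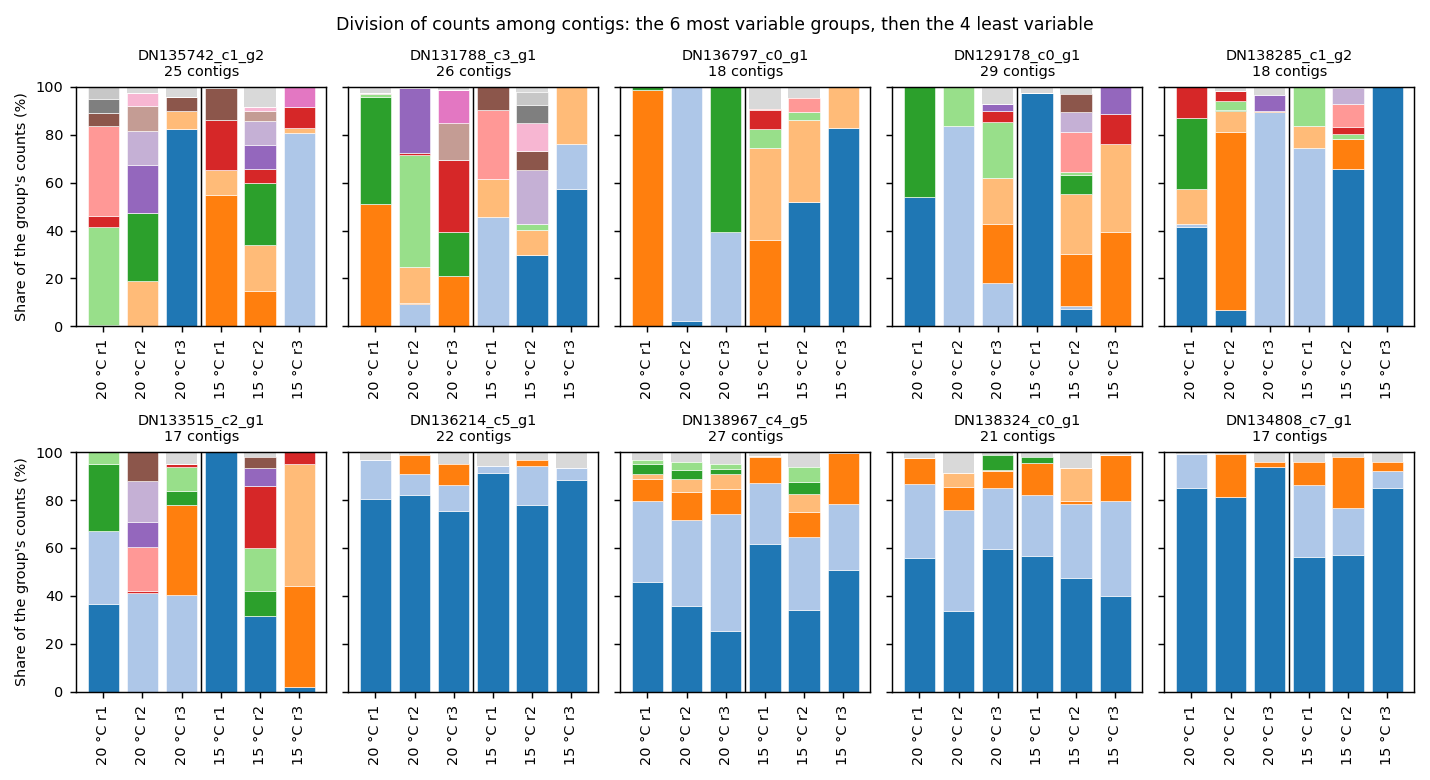
Percentage of each group's estimated counts held by its contigs in every library, for the 6 groups with the largest and the 4 with the smallest distance between libraries. In each panel the 20 °C libraries stand left of the line and the 15 °C libraries right of it, a colour marks one contig within its panel only, and pale grey pools the remaining contigs. In DN136797_c0_g1 a different contig fills each of the first and second 20 °C libraries, while i15 fills 75.4% to 82.0% at 20 °C and 77.8% to 91.2% at 15 °C in DN136214_c5_g1.

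Distances between temperatures were close to distances within a temperature, taken over all groups. The median distance was 52.6% over the 9 pairs between temperatures and 53.2% over the 6 pairs within them. The distance between temperatures was the larger one in 17 of the 41 groups and the smaller one in 24. Within 20 °C the median was 51.1% and within 15 °C it was 55.8%. The nearest library, by mean distance over the groups, was 15 °C replicate 2 for 20 °C replicate 1 (47.8%) and for 20 °C replicate 2 (42.1%). For 20 °C replicate 3 it was 20 °C replicate 2 (49.0%). For 15 °C replicate 1 it was 20 °C replicate 3 (51.9%), and for 15 °C replicate 3 it was 15 °C replicate 2 (46.7%). The most frequent nearest library, 15 °C replicate 2, was also by far the deepest, and the part of depth in these distances was not tested. The pair furthest apart was 20 °C replicate 1 and 15 °C replicate 1, at 59.1%.

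Distances were smaller in groups with more counts. Their Spearman correlation with the group's mean count was -0.61 over the 41 groups, which share the same 6 libraries, and with the longest contig it was 0.23. The 9 groups with a mean of at least 500 counts had a median distance of 26.6%, against 59.3% in the other 32. The part of counting error in the distances was not tested.

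Some groups had larger distances between temperatures than within them. In DN136797_c0_g1 the mean was 95.5% between and 72.1% within, in DN131788_c3_g1 92.9% and 77.2%, and in DN138857_c3_g1 72.1% and 48.2%. In DN135742_c1_g2 the order was the other way, with 85.9% between and 89.5% within. DN136306_c1_g1, which shared no leader between temperatures, had 77.9% between and 78.1% within.

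The spread over libraries was also taken for group sums and for single contigs. The coefficient of variation of TPM over the 6 libraries had a median of 29.4% for the group sum and 102% for contigs that held at least 20% of their group in some library. Contigs entered by being high in at least 1 library, and a sum varies less than its parts, so a larger value for contigs is in part fixed by the choice. In DN136797_c0_g1 it was 20.5% for the group against 162% for its contigs, in DN131788_c3_g1 22.9% against 207%, and in DN138285_c1_g2 17.7% against 172%. The values were closer in DN139233_c3_g1, with 93.6% for the group against 112% for its contigs, in DN136214_c5_g1, with 18.8% against 22.5%, and in DN138324_c0_g1, with 20.7% against 27.5%.

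**Figure D4:**
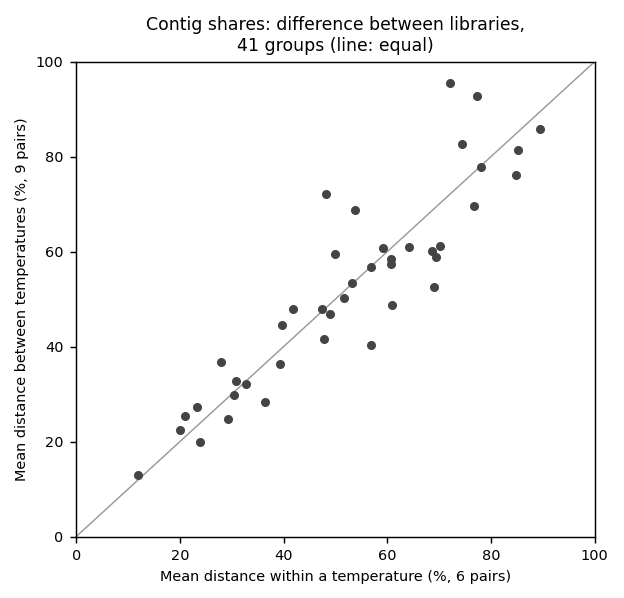
Mean distance of contig shares between libraries of different temperature (vertical axis, percent) against the mean distance between libraries of the same temperature (horizontal axis, percent), with one point for each of the 41 groups and the line of equality. The points lie on both sides of the line, 17 above it and 24 below it.

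The study's comparison was whether warm incubation leaves a difference in the ventricle months later. At the level of whole groups, 99 of the 150 groups passed the filter on low counts and 51 did not. In edgeR's quasi-likelihood test, fitted over 31870 contig groups, 0 of the 99 passed a Benjamini-Hochberg adjusted p of 0.05, against a background of 0 of 31870 (0%). An unadjusted p under 0.05 was found in 1 of the 99 groups (1.01%), against 1.94% of all groups tested. It was lower at 20 °C, as in 0.979% of all groups, and 0 were higher, against 0.96%. DESeq2 called 0 of the 99, against 51 of 31789 groups (0.16%). The width of the estimates limits this: the median half-width of the 95% interval was 1.24 on the log2 scale for the 99 groups and 1.55 for all groups.

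The fitted fold changes leaned to lower values at 20 °C, and the lean was much smaller without 15 °C replicate 2. The fitted value was lower at 20 °C in 66 of the 99 groups (66.7%), against 47.6% of all groups tested, and higher in 33 (33.3%), against 52.4%. Without 15 °C replicate 2 the low-count filter was rerun, and 99 of the 150 groups passed again, not necessarily the same ones. The fitted value was then lower at 20 °C in 48 of 99 (48.5%), against 46.2% of 34417 groups tested. The median log2 fold change was -0.16 for the 99 groups and 0.03 for all groups tested, and without that library 0.02 and 0.06. Measured in CPM, the 20 °C libraries did not overlap the 15 °C libraries in 11 of the 99 groups (11.1%), against 9.14% of all groups. They were higher at 20 °C in 3 (3.03%, against 4.97%) and lower in 8 (8.08%, against 4.17%).

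The smallest unadjusted p among the 99 groups belonged to DN139778_c2_g1, a group of 18 short contigs with at most 601 bases. It had 19.6, 37.2 and 10.8 TPM at 20 °C and 38.8, 76.7 and 41.1 TPM at 15 °C. Its log2 fold change was -1.83 (SE 0.72, 95% interval -3.56 to -0.10, unadjusted p = 0.0415 and adjusted p = 1.00 by edgeR). The counts were 18.0, 23.0 and 8 at 20 °C and 19.0, 306.8 and 13.0 at 15 °C, and without 15 °C replicate 2 the log2 fold change was -0.85. Contig i13, of 209 bases, held 78.6%, 100% and 100% of these counts at 20 °C and 57.9%, 13.0% and 92.3% at 15 °C. In the deepest library i4, of 598 bases, led with 48.1%.

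DN131040_c1_g1 was the other group named as lower at 20 °C, with 6.11, 7.91 and 7.58 TPM at 20 °C and 8.46, 13.0 and 14.2 TPM at 15 °C. Every 20 °C library lay below every 15 °C library in TPM, but not in CPM (counts scaled for depth alone), where 20 °C replicate 2 had 19.4 and 15 °C replicate 1 had 18.3. The log2 fold change was -1.13 (SE 0.50, 95% interval -2.33 to 0.07, unadjusted p = 0.0608 and adjusted p = 1.00 by edgeR).

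The groups named as higher at 20 °C did not pass the test either. DN139770_c3_g3 had 76.0, 68.9 and 72.0 TPM at 20 °C and 47.0, 49.3 and 54.7 TPM at 15 °C, with no overlap. It averaged 72.3 ± 3.55 TPM at 20 °C, against 50.3 ± 3.94 TPM at 15 °C (SD, n = 3 libraries each). The log2 fold change was 0.58 (SE 0.31, 95% interval -0.15 to 1.32, adjusted p = 1.00 by edgeR). DN135350_c3_g1 had 9.05, 12.9 and 7.77 TPM at 20 °C and 1.30, 10.5 and 5.72 TPM at 15 °C, and its log2 fold change was 1.21 (SE 0.75, 95% interval -0.59 to 3.00, adjusted p = 1.00 by edgeR). Its second 15 °C library lay within the 20 °C range, and without it the log2 fold change was 2.38.

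The most abundant pair of groups differed in the width of their intervals, which was large for DN139233_c3_g1 and smaller for DN140256_c1_g2. The log2 fold change was -0.96 for DN139233_c3_g1 (95% interval -3.17 to 1.26, adjusted p = 1.00 by edgeR), and without 15 °C replicate 2 it was 0.21. It was 0.04 for DN140256_c1_g2 (95% interval -0.66 to 0.74). For DN134808_c7_g1 it was -0.47 (95% interval -0.97 to 0.03, unadjusted p = 0.0625 and adjusted p = 1.00 by edgeR). That group had 34.9, 37.4 and 34.4 TPM at 20 °C against 47.5, 60.1 and 49.9 TPM at 15 °C, without overlap.

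**Figure D5:**
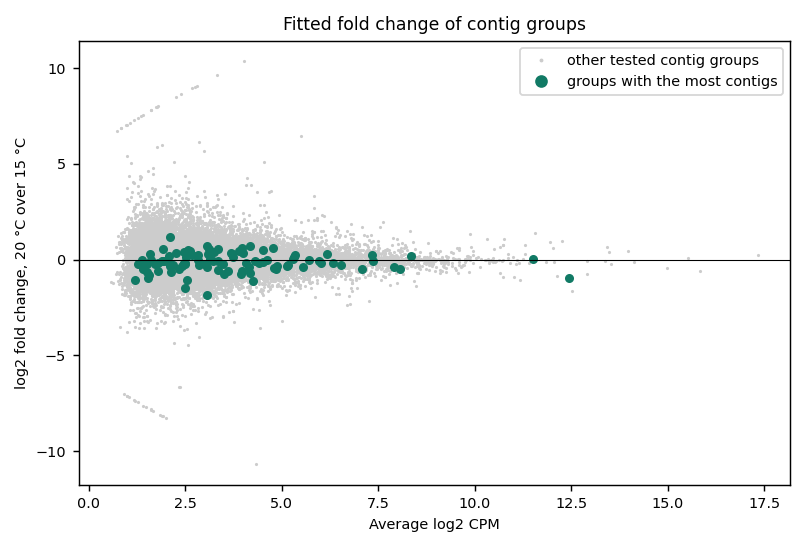
Fitted log2 fold change of 20 °C over 15 °C (vertical axis) against average log2 CPM (horizontal axis) for the 31870 contig groups tested, with the 99 tested groups among the 150 in green over the others in grey. The green points lie between -1.83 and 1.21, inside the range of the grey points.

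For single contigs, 170 contigs from 56 of the 150 groups passed the filter. Of these, edgeR called 0, against 0 of 33317 contigs tested (0%). An unadjusted p under 0.05 was found in 3 (1.76%), against 1.61% of all contigs tested. It was found with a higher value at 20 °C in 1 (0.588%) and with a lower one in 2 (1.18%), against 0.804% in either direction over all contigs. The fitted value was higher at 20 °C in 83 (48.8%), against 52.4%, and lower in 87 (51.2%), against 47.6%. The temperatures did not overlap in CPM in 13 (7.65%), against 9.04%. Of those, 6 were higher at 20 °C (3.53%, against 4.94%) and 7 lower (4.12%, against 4.1%). DESeq2 called 2 of 167 (1.20%), against 205 of 33102 (0.619%). Those 2 contigs were i14 of DN133515_c2_g1 and i7 of DN136797_c0_g1.

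Contig i14 of DN133515_c2_g1, 3510 bases long, had 49.8, 60.5 and 55.0 counts at 20 °C and 0 in all 15 °C libraries. It held 30.6%, 41.0% and 40.2% of the group's counts at 20 °C. Set against the limit of 3 counts over all 15 °C libraries, its mean of 11.6 ± 2.71 CPM (SD, n = 3) was at least 71.0-fold higher at 20 °C. Most of the 15 °C depth lies in one library, and without 15 °C replicate 2 the bound was 20.8-fold. This bound and the fold bounds below cover counting error only. They leave out the division of shared reads among contigs and the spread among libraries. The adjusted p was 7.73e-07 by DESeq2 and 1.00 by edgeR, whose unadjusted p was 0.00054. This contig passed the filter through its 20 °C counts alone, so these p-values are not read as support for a difference. The group as a whole did not follow its contig: it had 8.36, 9.98 and 8.90 TPM at 20 °C and 2.11, 7.11 and 8.82 TPM at 15 °C. At 15 °C, i11 held 100%, 31.4% and 1.78% of the counts, and in 15 °C replicate 3 contig i4 led with 51.1%.

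Contig i7 of DN136797_c0_g1, 4617 bases long, was at 0 in all 20 °C libraries, against 22.9, 75.3 and 7.8 counts at 15 °C. It was at least 27.0-fold lower at 20 °C, against the limit of 3 counts over all 20 °C libraries, and without any one 20 °C library the bound was 17.1-fold to 19.3-fold. This contig passed the filter through its 15 °C counts alone, and the same limits hold. The adjusted p was 0.000472 by DESeq2 and 1.00 by edgeR, whose unadjusted p was 0.00209.

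Such contigs were few. At least 5 counts in each 20 °C library and under 0.5 in each 15 °C library were found for 3 of the 3106 contigs (0.0966%), against 0.059% of all 347710 contigs. The reverse was found for 1 (0.0322%), against 0.0394%. These contigs were picked for being high at one temperature and near 0 at the other, so their fold bounds are in part fixed by the choice. Besides i14 of DN133515_c2_g1, the contigs found at 20 °C were i24 of DN135350_c3_g1 and i11 of DN138466_c3_g1. Contig i24 of DN135350_c3_g1 held 76.1%, 54.6% and 66.3% of its group at 20 °C, with 24.8, 15.1 and 10.2 counts, and was at least 21.1-fold higher at 20 °C, or 6.18-fold without 15 °C replicate 2. At 15 °C its group held 2.00, 56.7 and 3.17 counts, so only the second 15 °C library bears on it. Contig i11 of DN138466_c3_g1 had 7.9, 6.9 and 5.1 counts at 20 °C and was at least 8.49-fold higher there, or 2.49-fold without 15 °C replicate 2.

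The division of counts within a group was tested in 35 of the 150 groups, those with at least 2 tested contigs (a median of 3 and at most 11 contigs). Of these, 0 passed an adjusted p of 0.05 in edgeR's test of contig shares with the Simes method, against 0 of 3182 groups (0%). An unadjusted p under 0.05 was found in 1 (2.86%), against 2.64% of all groups tested. That group was DN133515_c2_g1, with an unadjusted p = 0.0269 and an adjusted p = 1.00 by edgeR, and its contig i14 is the one described above.

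DN133707_c9_g1 came next, with an unadjusted p = 0.327 and an adjusted p = 1.00 by edgeR. Its contig i19, of 1619 bases, held 24.2%, 27.3% and 24.2% of the counts at 20 °C and 58.1%, 40.4% and 41.9% at 15 °C, with no overlap. As a level, this contig had a log2 fold change of -1.19 (SE 0.36, unadjusted p = 0.0169 and adjusted p = 1.00 by edgeR), while the group had 59.7, 51.9 and 48.5 TPM at 20 °C and 49.8, 94.5 and 48.3 TPM at 15 °C. DN136306_c1_g1 and DN136214_c5_g1 followed with unadjusted p of 0.414 and 0.514 by edgeR.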

How the data were processed

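Ventricle RNA of 6 libraries was sequenced from a stranded mRNA kit that selects poly(A) RNA, according to the labels' protocols. The submitters' processing notes name Trimmomatic and kallisto, without versions. The authors deposited for each library and contig an estimated count, which need not be whole and is not normalised, and TPM, which is scaled for effective length and depth, per the file headers. Contig lengths came from the same deposited tables. The contig names in the deposited tables carry the prefix and form of the Trinity assembler. Its version and a genome build were found in no source used here.

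Groups came from the sample titles. The contig groups and all rules for naming them were chosen with earlier results of these data known. Named groups were the 5 with the most contigs, the 8 with the highest mean TPM, the 6 with the largest and the 4 with the smallest share distance, the 2 higher and 2 lower with the smallest p, and the 4 with the smallest p for shares. Contig i11 of DN138466_c3_g1 and the group DN135292_c0_g1 were named after their values were seen.

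Estimated counts were summed per group and rounded. The edgeR 4.0.16 functions filterByExpr and glmQLFTest (robust, with TMM factors, in R 4.3.3) were run on all groups and all contigs with temperature as the sole term. Contig shares were tested with diffSpliceDGE. Scripts were tested on simulated data. Groups with at least 20 counts in every library were described for leading contigs. Intervals are Wilson 95% intervals on rounded counts, and floors are 3 counts. Lists of heart cell markers could not be matched. Alternatives were RLE size factors, DESeq2 1.42.0, other filters, log2 of TPM plus 0.5 or plus 0.05 in limma 3.58.1, a scale that understates changes of low values, a replicate block and leaving out each library. Leaving out the most abundant pair of groups was added after seeing the data. Libraries with the same number deviated from their temperature's mean with correlations of 0.076, 0.184 and -0.02, so the numbers were not used as pairs.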

Additional observations from a re-analysis of the deposited data

How the results depend on the processing

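No alternative moved the count of groups called for contig shares from 0, and leaving out each library in turn gave 0 to 0 for groups, contigs and shares. For whole groups, no low-count filter gave 1 call among 150 groups tested, of DN135292_c0_g1 (adjusted p = 0.00731 by edgeR). Its counts were 0, 0 and 1.00 at 20 °C and 0, 211.3 and 0 at 15 °C, so a single library carries it. For single contigs, DESeq2 gave 2 calls. No low-count filter gave 6 calls among 1995 contigs tested, with 2 higher and 4 lower at 20 °C, and the cause was not tested. Among the higher ones was i41 of DN138857_c3_g1, which had 0 counts in 20 °C replicate 3. The share called without the filter over all groups or all contigs is not given here, so these calls are not read as a trait of the 150 groups. Under the replicate block, 0 groups, 0 contigs and 0 share tests were called. The fit with the block gave an unadjusted p under 0.05 to 2 groups, 3 contigs and 1 share test. Log2 fold changes that turned did so only when a library was left out: they ranged from -1.46 to 0.21 for DN139233_c3_g1, -0.14 to 0.29 for DN140256_c1_g2, -0.037 to 1.05 for DN139756_c3_g1 and -0.66 to 0.17 for DN140519_c2_g2. The number of groups with one leader throughout was 6 of 41 by TPM (5 of them also by counts). The number of groups followed changed with the setting. It was 6 of 55 with a minimum of 10 counts, 6 of 22 with 50 counts and 6 of 33 after thinning. Without a library it was 6 to 7, of 41 to 47 groups. The difference in median leading share ranged from -1.43 to 2.93 percentage points without a library. It was 3.78 with a minimum of 50 counts (22 groups) and 5.61 after thinning (33 groups). The difference in the share of TPM ranged from -0.824 to 0.107 percentage points without a library. Depth limits the 15 °C replicates 1 and 3 most, where 51 of the 150 groups in each reached 20 counts.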

Other observations

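The library in which a group had its highest TPM was counted over the 150 groups. It was a 20 °C library for 14, 31 and 9 groups (replicates 1, 2 and 3) and a 15 °C library for 20, 32 and 44 groups. No such count over all contig groups stands beside these numbers, so they are not read as a trait of the 150 groups. In 1 group, DN135292_c0_g1, the highest library exceeded the next by more than 10 times. It was named here after its values were seen, and its counts are given above.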
